A study of Mus musculus with 23 samples.

Results

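After 1 h of Kdo2-Lipid A, 1239 tall p65 sites of wild type macrophages had no partner in the peak list of macrophages that lack NCoR. A site was taken when its height in the wild type list was 50 or more and no knockout peak was centred within 500 bp of its own centre. Height is the authors' normalized tag count, which gives the sequenced tags under a peak for every 10000000 tags sequenced in its library. These wild-type-only sites were 10.8% of the 11444 wild type peaks of that height and 4.13% of all 30021 wild type peaks. With no limit on height, 40.1% of wild type peaks had no knockout centre within 500 bp. The other 10205 tall wild type peaks had a knockout centre within 500 bp and are called sites in both lists. The sites were chosen by 2 measured values, the wild type height and the absence of a knockout peak, which are given below as a description with no test.

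p65 (RelA) is the transactivating subunit of NF-κB. In a resting macrophage it is held in the cytoplasm by IκB proteins. Lipid A binds TLR4, IκB is degraded, and p65 dimers enter the nucleus and bind κB elements, many of them in enhancers already opened by macrophage lineage factors such as PU.1. NCoR is a corepressor without DNA binding of its own, which nuclear receptors and other factors bring to chromatin together with histone deacetylases. The comparison addressed whether its loss altered where p65 went during the inflammatory response.

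All p65 libraries came from thioglycollate-elicited peritoneal macrophages of C57BL/6 mice, labelled as males aged 6 to 8 weeks, kept in low serum overnight. Both genotypes carried floxed alleles (NCoR fl/fl), with Lys M-Cre -/- in the wild type and Lys M-Cre +/- in the knockout, so deletion depended on a promoter active in myeloid cells, and how complete it was is not measured by these lists. KLA was given at 100 ng/ml for 1 h, and untreated cells of both genotypes were also profiled. A list of LXRβ sites came from RAW264.7, a mouse macrophage line, carrying BirA and BLRP-tagged LXRβ and treated with 1 µM GW3965, an LXR agonist, for 2 h. With 1 library in each group there was nothing to test genotypes against, so differences are described without a test and all intervals cover counting error only. The labels do not say whether animals were pooled.

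The wild type KLA library held 2120392 tags and the knockout KLA library 1673506, so that 1 tag was worth 4.72 and 5.98 units of height. The untreated libraries held 777228 and 786121 tags. After KLA the lowest listed height was 18.9 for wild type and 29.9 for knockout cells, and a site missing from a list may hold tags below these levels. No input library was used to call wild type KLA peaks, while the knockout list lost 1902 candidate peaks to the comparison with an input and 3116 to the filter on local signal. The wild type list lost 5916 to the local filter. The part of these differences in calling in which sites lack a knockout peak was not tested. Positions are on mouse build mm9, and no genome or gene annotation of that build was used here, so sites are named by position.

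Most of the wild-type-only sites lay just above the height threshold. Their heights ran from 51.9 to 221.7 with a median of 56.6 (quartiles 51.9 and 66.0), whereas sites in both lists ran from 51.9 to 679.1 with a median of 84.9 (61.3 and 122.6). A total of 629 wild-type-only sites (50.8%) rested on 11 or 12 tags, against 1818 (17.8%) of the sites in both lists. A height of 51.9, or 11 tags, has a 95% Poisson interval of 25.9 to 92.8, which reaches below the lowest height the knockout list could hold. From 13 tags on the lower bound lay above that height, and 610 sites (49.2%) had 13 or more. The bound covers counting error of the wild type tags only. The lowest knockout height, 29.9, rests on 5 tags with an error of their own, so the 610 are not sites shown to lack p65 in knockout cells. The tag step just under the threshold, 10 tags and a height of 47.2, held 1653 wild type peaks, of which 561 (33.9%) had no knockout centre within 500 bp. The step just above it held 1357 peaks, of which 394 (29.0%) were wild-type-only. The first 3 unmatched peaks of each step in order of position, all on chromosome 1, serve as examples. Those at 51.9 lay from 13362936 to 13363068, from 23387354 to 23387486 and from 31210775 to 31210907, with the nearest knockout centres 2352, 532689 and 11601 bp away. Those at 47.2 lay from 6455127 to 6455259, from 14584081 to 14584213 and from 36219631 to 36219763, with the nearest knockout centres at 10684, 2217 and 20108 bp.

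The share of peaks without a partner fell with height in both directions. Among wild type peaks it was 25.7% (95% Clopper-Pearson interval 24.0 to 27.5) at heights of 50 to under 60 and 15.6% (14.2 to 17.1) at 60 to under 75. It was 6.37% (5.48 to 7.35) at 75 to under 100, 1.95% (1.38 to 2.67) at 100 to under 150 and 0.331% (0.122 to 0.719) at 150 or more, which was 6 of 1813 peaks. At 150 or more, nearly all wild type sites were thus listed in knockout cells too. In the reverse direction, 756 of 11526 knockout peaks of height 50 or more (6.56%) had no wild type centre within 500 bp, with heights of 53.8 to 161.3. Their share was 15.3% (14.0 to 16.7) at 50 to under 60 and 0.185% (0.0382 to 0.541) at 150 or more. The lists end at different lowest heights, 18.9 and 29.9, whose part in the difference between the directions was not tested.

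**Figure D1:**
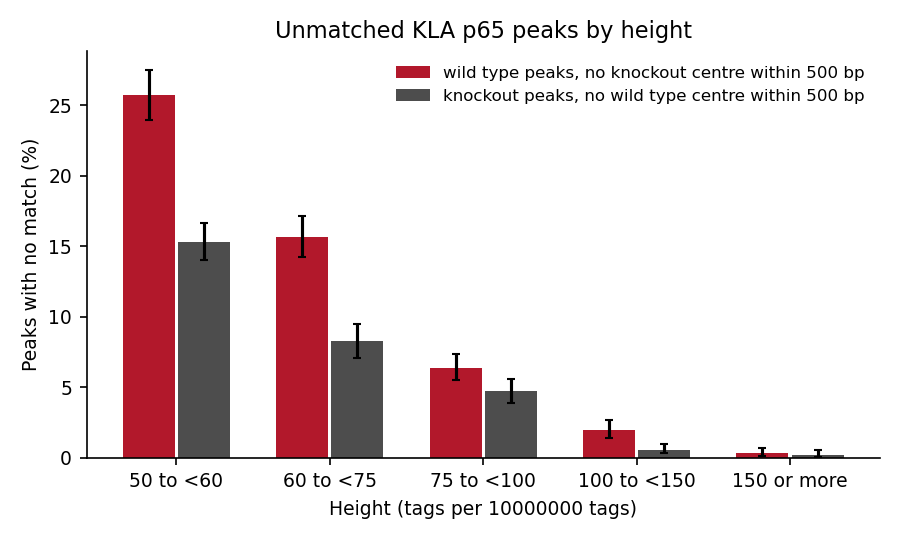
Share of KLA p65 peaks with no peak of the other genotype centred within 500 bp, in percent, by the peak's own height in tags per 10000000 tags, with 95% Clopper-Pearson intervals. Red bars are wild type peaks, of which 25.7% were unmatched in the lowest class and 0.331% in the highest, and grey bars are knockout peaks, with 15.3% and 0.185%.

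Of the sites in both lists, 9285 (91.0%) had the knockout centre within 100 bp. At wild type heights of 50 to under 60 their knockout heights had a median of 53.8 (quartiles 41.8 and 71.7), and 286 of 1818 (15.7%) stood on the lowest 2 tag steps of the knockout list. At heights of 75 to under 100 the knockout median was 77.7 (59.8 and 101.6), and 100 of 2557 (3.91%) stood on those steps.

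The 10 tallest wild-type-only sites were mostly neighbours of sites that both genotypes shared. The tallest, on chromosome 9 from 3000063 to 3000195, had a height of 221.7 (95% Poisson interval 163 to 295), and a knockout peak of 113.5 was centred 521 bp away. It was also listed in untreated cells, at 488.9 in wild type and 394.3 in knockout, with 4.4 and 5.7 scaled input tags. It is therefore a position with signal in 3 of the 4 macrophage lists and in the input.

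On chromosome 10 from 37057140 to 37057272 the height was 188.6 (135 to 257), and 990 bp away stood a knockout peak of 579.6. The wild type list had its own peak of 556.5 at 1000 bp, so a much taller site shared by both genotypes lay beside it. On chromosome 4 from 126115659 to 126115791 the height was also 188.6, with a knockout peak of 215.1 at 588 bp and a wild type neighbour of 150.9 at 562 bp. An untreated wild type peak of 64.3, 5 tags, was centred 237 bp from it. At this locus the knockout peak lay at the position of the wild type neighbour.

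On chromosome 15 from 31278885 to 31279017 the height was 174.5 (123 to 241). The nearest knockout peak, 1174 bp away, had a height of 29.9, the lowest in that list, and the wild type neighbour at 1115 bp had 80.2. Both neighbouring peaks were lower than the site here, unlike on chromosome 10. On chromosome 2 from 128186471 to 128186603 the height was again 174.5, with a knockout peak of 125.5 at 983 bp and a wild type neighbour of 207.5 at 958 bp. On chromosome 7 from 148198777 to 148198909 the height was 150.9 (103 to 213), with a knockout peak of 125.5 at 2107 bp.

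Next came a pair of sites on chromosome 11. From 53577061 to 53577193 the height was 146.2 (99.3 to 208), with a knockout peak of 251.0 at 527 bp and a wild type neighbour of 221.7 at 515 bp. From 97521475 to 97521607 it was 141.5 (95.5 to 202), with a knockout peak of 143.4 at 519 bp and a wild type neighbour of 226.4 at 683 bp. Both therefore stood beside a shared peak at little more than the matching distance. The last of the 10 were on chromosome 17, both with 141.5. The site from 50311099 to 50311231 had a knockout peak of 71.7 at 695 bp and a wild type neighbour of 70.7 at 707 bp. The site from 39982470 to 39982602 stood alone, with the nearest knockout KLA centre 1032218 bp away. An untreated knockout peak of 508.8, with 3.2 scaled input tags, was centred 990 bp from that site. An untreated wild type peak of 308.8, with 0 scaled input tags, was centred 2014 bp from it. In all, 8 of the 10 had a knockout KLA centre within 1200 bp and 8 had another wild type KLA centre within that distance. The shares of all tall wild type peaks at 1200 bp were not counted. At heights of 100 or more, another wild type KLA centre lay within 1000 bp of 31.8% (18.6 to 47.6) of wild-type-only sites. The same held for 23.8% (22.4 to 25.2) of sites in both lists.

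**Figure D2:**
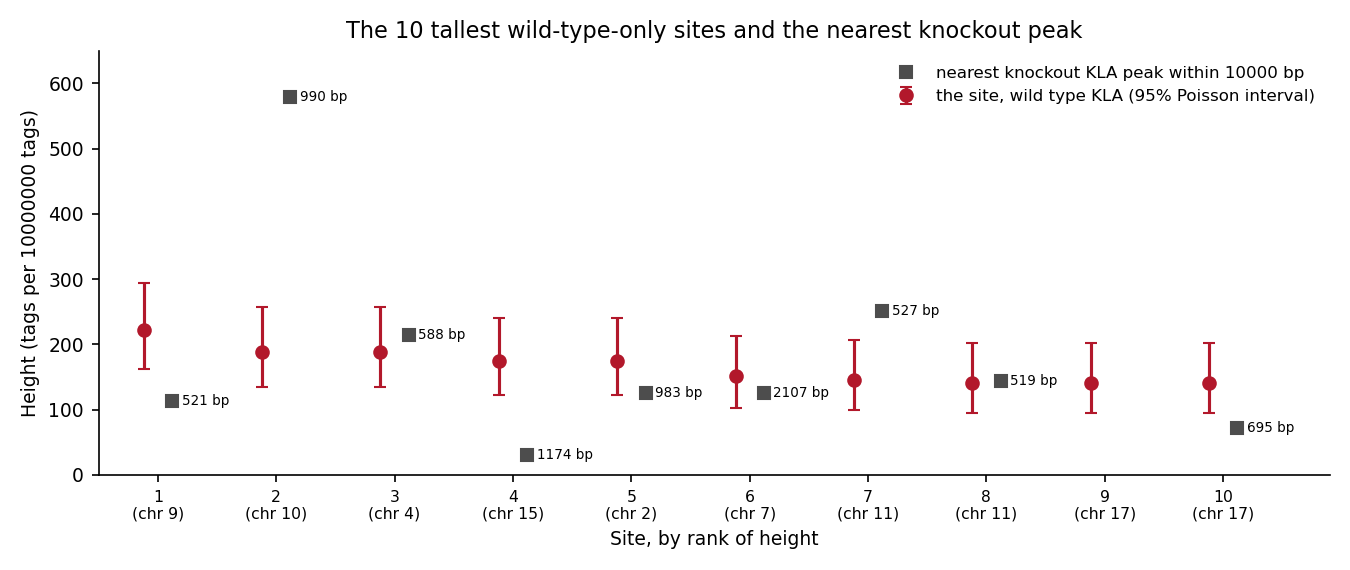
Height in tags per 10000000 tags of the 10 tallest wild-type-only sites (red circles, with 95% Poisson intervals of their tags) and of the nearest knockout KLA peak where 1 was centred within 10000 bp (grey squares, labelled with its distance). Sites are ordered by height with their chromosome below. The knockout neighbours run from 29.9 to 579.6, and site 9 has none.

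Over all 1239 sites the distance to the nearest knockout KLA centre had a median of 3714 bp. It was at most 1000 bp at 195 sites (15.7%), over 1000 to 2000 bp at 209 (16.9%), over 2000 to 10000 bp at 478 (38.6%) and over 10000 bp at 357 (28.8%). The matching limit itself divided a continuous range, since 59 sites had the knockout centre at over 500 to 600 bp and 67 tall wild type peaks had it at over 400 to 500 bp. The nearest outside were 503 bp on chromosome 6 from 17016112 to 17016244 (height 66.0), 505 bp on chromosome 12 from 73945152 to 73945284 (66.0) and 505 bp on chromosome 19 from 16090789 to 16090921 (127.3). The 3 tallest with over 490 to 500 bp were on chromosome 9 from 110960514 to 110960646 (132.1, at 500 bp), on chromosome 5 from 4530390 to 4530522 (117.9, at 494 bp) and on chromosome 8 from 11463885 to 11464017 (56.6, at 499 bp).

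Among the 404 sites with a knockout centre within 2000 bp, that knockout peak had a wild type centre within 500 bp at 346 (85.6%). The same held for the nearest knockout peak of 81.8% of all wild-type-only sites. Among knockout KLA peaks it held for 78.0% of those of any height and for 93.4% of those of height 50 or more. At the 404 sites the nearest knockout peak had a median height of 83.7. It was taller than the wild-type-only site at 258 of the 404 (63.9%). Taller sites were nearer to a knockout peak than low sites. The median distance was 4358 bp at heights of 50 to under 60, 2699 bp at 75 to under 100 and 1327 bp at 100 or more, with 44 sites in the last class.

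**Figure D3:**
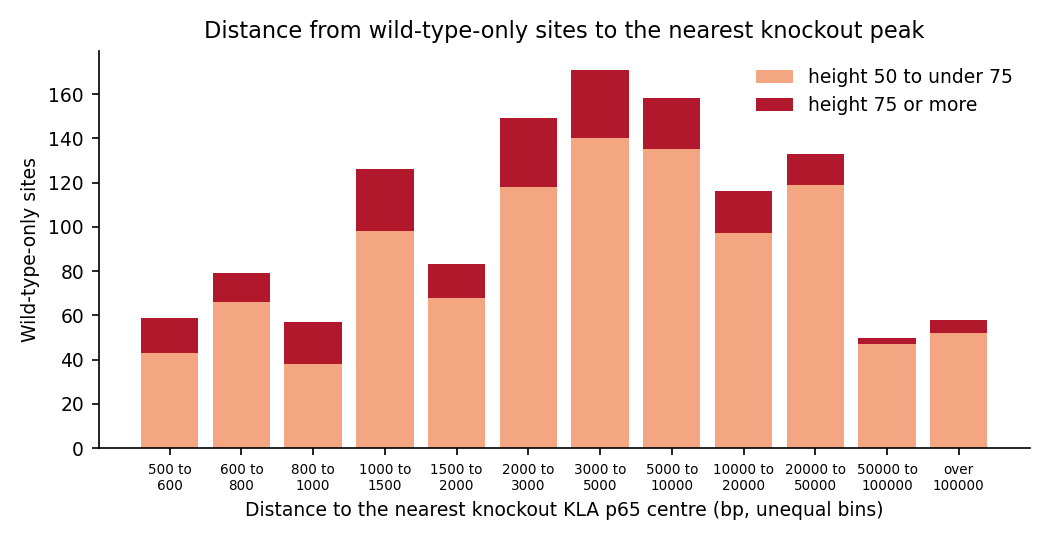
Number of wild-type-only sites by the distance in bp from their centre to the nearest knockout KLA p65 centre, in bins of unequal width that each include their upper limit. Pale bars are sites of height 50 to under 75 and red bars those of 75 or more. Of the 1239 sites, 195 lie within 1000 bp and 357 beyond 10000 bp.

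The surroundings of the wild-type-only sites were compared with those of sites in both lists at the same height. The measure was the authors' fold over local signal, the tag density at the peak over that of the surrounding 10000 bp in the wild type library. The median was 22.4 (quartiles 11.1 and 45.5) at wild-type-only sites and 32.7 (19.1 and 51.9) at sites in both lists. It was lower in each height class, 23.5 against 28.0 at 50 to under 60, 21.5 against 30.4 at 60 to under 75, and 18.6 against 31.5 at 75 to under 100. At 100 or more it was 18.7 against 37.4. The quartile ranges overlapped in every class.

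A fold below 8, near the 4-fold that the caller required, was given to 173 wild-type-only sites (14.0%, 12.1 to 16.0) and to 382 sites in both lists (3.74%, 3.38 to 4.13), where 4.85% of all tall wild type peaks had it. Within the wild-type-only sites the fold followed the distance to the nearest knockout peak. The median was 11.8 where that peak was within 1000 bp, 12.9 at over 1000 to 2000 bp, 19.3 at over 2000 to 10000 bp and 52.3 beyond 10000 bp, and 29.7%, 25.4%, 11.9% and 1.40% of these sites had a fold below 8. The surrounding 10000 bp include neighbouring wild type peaks, whose tags lower the fold by its construction. The median number of other wild type peaks within 5000 bp was 2, 2, 1 and 0 in these classes of distance. The part of such neighbours in the order of the folds was not tested. The knockout list was called with the same local filter. Its part in the absence of a knockout peak was not tested.

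Another wild type KLA peak was centred within 1000 bp of 239 wild-type-only sites (19.3%, 17.1 to 21.6) and of 2328 sites in both lists (22.8%, 22.0 to 23.6), where the share of all tall wild type peaks was 22.4%. This share moved with the matching distance, to 28.9% with partners sought within 200 bp and 7.28% within 1000 bp, so the order against 22.4% turned. Of the 239 sites, 163 had a knockout centre within 1000 bp. Within 5000 bp, 444 wild-type-only sites (35.8%, 33.2 to 38.6) and 4451 sites in both lists (43.6%, 42.7 to 44.6) had no other wild type peak. At heights of 75 to under 100 these shares were 27.0% (20.6 to 34.3) and 45.1% (43.2 to 47.0).

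The focus ratio, a fraction computed by the authors, counts the tags that fall where their strand predicts around the centre and is high for a sharply bound site. Its median was 0.792 (quartiles 0.733 and 0.850) at wild-type-only sites and 0.769 (0.714 and 0.825) at sites in both lists. The medians were 0.789 and 0.765 at heights of 50 to under 60, 0.800 and 0.765 at 60 to under 75, 0.792 and 0.767 at 75 to under 100, and 0.768 and 0.776 at 100 or more. The quartile ranges overlapped throughout.

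**Figure D4:**
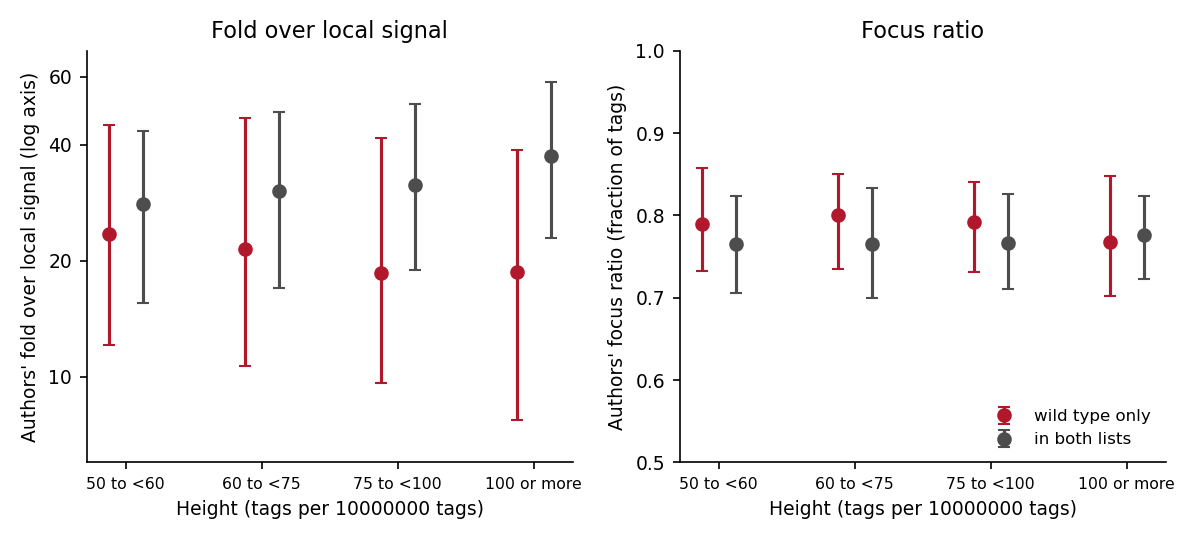
Median (circle) and quartiles (bars) of the authors' fold over local signal, on a log axis, and of their focus ratio, a fraction of tags, by height in tags per 10000000 tags. Red is wild-type-only sites and grey is sites in both lists. The fold medians lie at 18.6 to 23.5 in red and 28.0 to 37.4 in grey, and the focus ratio medians at 0.768 to 0.800 in red and 0.765 to 0.776 in grey.

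The sites were spread over the genome. They fell into 1080 of the 5191 windows of 100 kb that held a tall wild type peak. Of these 1080 windows, 951 held 1 site and 22 held 3 or more. Neither these counts nor the next share were made for all tall wild type peaks. The sites shared 764 of the 1080 windows (70.7%) with a tall wild type peak that had a knockout partner. By chromosome their share of the tall wild type peaks ran from 9.48% (7.14 to 12.3) on chromosome 17 to 13.4% (11.3 to 15.8) on chromosome 11, which held 123 sites, and was 11.5% (6.60 to 18.3) on the X. The 1 tall wild type peak on the Y was wild-type-only. The most crowded window, from 3000001 to 3100000 of chromosome 9, had 7 sites among 20 tall wild type peaks and 13 knockout peaks. Of those 7, 6 lay within 500 bp of a p65 peak with 1 or more scaled input tags. Such a peak was near 13 wild-type-only sites in all (1.05%) and near 0.813% of tall wild type peaks. The wild type KLA list gives no input tags, so input could be read only where another p65 list had a peak. Among wild-type-only sites these were the 61 with an untreated peak of either genotype. The 0.813% also draws on knockout KLA peaks, which wild-type-only sites lack by choice.

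The untreated lists, which the choice of sites did not use, give the p65 peaks listed without KLA. An untreated wild type peak was centred within 500 bp of 24 sites (1.94%, 1.24 to 2.87) and an untreated knockout peak within 500 bp of 46 (3.71%, 2.73 to 4.92), against 4.11% and 6.57% of all tall wild type peaks. Of these sites, 11 of the 24 and 9 of the 46 lay within 500 bp of a p65 peak with 1 or more scaled input tags. Without such sites the untreated wild type share was 1.06% and the untreated knockout share 3.02%. These 2 values have no like comparison, since shares without such sites were not counted for other tall peaks. With such sites kept, sites in both lists had 4.37% (3.98 to 4.79) and 6.92% (6.43 to 7.43). Both shares of the wild-type-only sites were highest, at 15.9%, among the 44 sites of height 100 or more, with 7 sites each. The untreated peak carried 1 or more scaled input tags at 5 of the 7 with an untreated wild type peak (2.8 to 4.4) and at 4 of the 7 with an untreated knockout peak (3.6 to 5.7), and its part in these shares was not tested. Within a height class the wild-type-only sites and the sites in both lists had overlapping intervals, apart from untreated knockout peaks at 60 to under 75. There the shares were 2.30% (1.06 to 4.31) and 5.58% (4.64 to 6.65). At 50 to under 60 they were 3.34% (2.08 to 5.06) and 4.57% (3.65 to 5.63).

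An untreated peak of both genotypes was near 9 sites (0.726%, 0.333 to 1.37), a share not counted for all tall wild type peaks. Of these 9 sites, 5 lay in the chromosome 9 window, and 7 were near a p65 peak with 1 or more scaled input tags. The 2 others, named after their values were seen, were on chromosome 4 from 118799957 to 118800089 and on chromosome 7 from 31179572 to 31179704. The first had 64.3 in untreated wild type, 101.8 in untreated knockout and 117.9 in wild type KLA cells, and its nearest knockout KLA peak, of 233.0, was 1349 bp away. The second had 77.2, 101.8 and 89.6, with a knockout KLA peak of 35.9 at 1189 bp. Their input was at most 0.5 scaled tags, so these are positions with p65 in 3 of the 4 macrophage lists but not in the knockout KLA list.

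A further 37 sites (2.99%, 2.11 to 4.09) had an untreated peak in knockout cells alone, a share not counted for all tall wild type peaks. Of these 37 sites, 2 were near input signal. Their untreated knockout heights ran from 63.6 to 559.7 with a median of 76.3, and their wild type KLA heights from 51.9 to 113.2 with a median of 56.6. The lowest height that the untreated knockout list could hold was 63.6, above the wild type KLA height of 814 wild-type-only sites (65.7%). Among the tallest without input were sites on chromosome 9 from 70109542 to 70109674 (76.3 in untreated knockout, 113.2 in wild type KLA) and chromosome 11 from 102067121 to 102067253 (229.0 and 103.8). The chromosome 11 site had an untreated wild type peak of 231.6 at 587 bp, just past the limit. Another was on chromosome 16 from 57211290 to 57211422 (63.6 and 89.6). Knockout KLA peaks of 179.3, 89.6 and 89.6 were centred 1284, 529 and 4178 bp from these 3 sites. These sites were chosen after their values were seen.

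LXRβ sites were set beside them because NCoR is a corepressor of LXR. The p65 and LXRβ lists come from different cells, so a shared position is not binding in the same cell. An LXRβ peak was centred within 500 bp of 77 wild-type-only sites (6.21%, 4.94 to 7.71), against 7.6% of all tall wild type peaks and 7.77% (7.26 to 8.31) of sites in both lists. By height class the shares were 6.04% (4.31 to 8.20) and 5.17% (4.20 to 6.29) at 50 to under 60, 5.36% (3.35 to 8.07) and 6.53% (5.51 to 7.67) at 60 to under 75, and 6.90% (3.61 to 11.7) and 8.21% (7.18 to 9.35) at 75 to under 100. The intervals overlapped in each class. LXRβ heights at these 77 sites ran from 8.2 to 107.4 with a median of 10.9, and the median at sites in both lists was also 10.9.

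**Figure D5:**
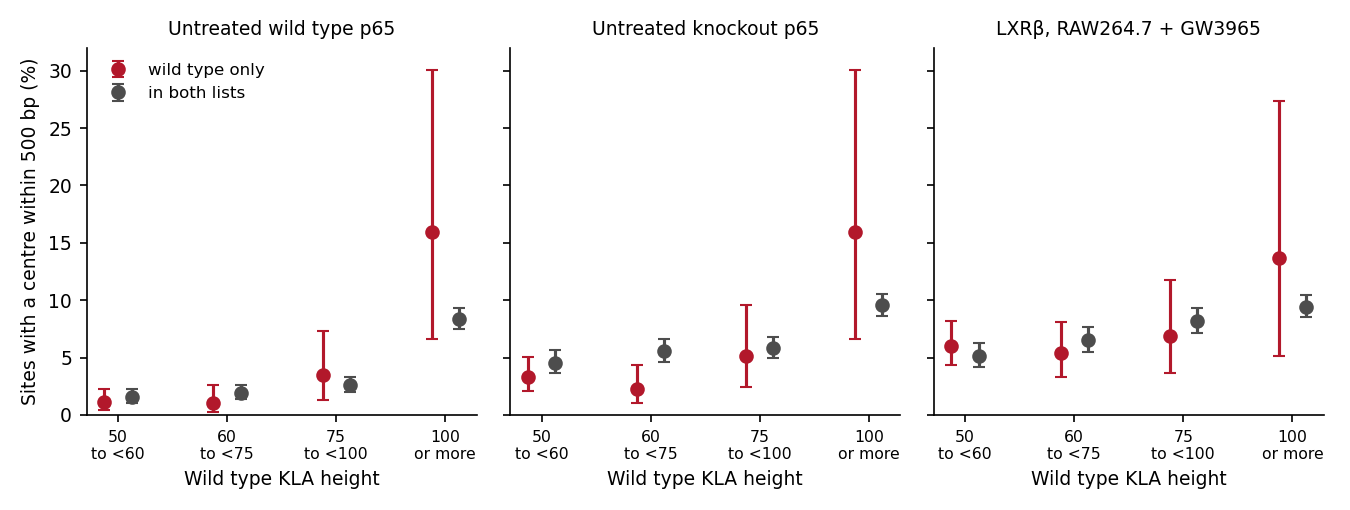
Percent of sites with an untreated wild type p65, untreated knockout p65 or LXRβ peak centred within 500 bp, by wild type KLA height in tags per 10000000 tags, with 95% Clopper-Pearson intervals. Red is wild-type-only sites and grey is sites in both lists. The class of 100 or more holds 44 red sites, with shares of 15.9%, 15.9% and 13.6% and wide intervals. The grey shares in that class are 8.37%, 9.58% and 9.44%.

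The tallest wild-type-only sites with LXRβ were of different kinds. On chromosome 11 from 108873077 to 108873209 p65 was 127.3 in wild type KLA cells, 347.4 in untreated wild type and 1018 in untreated knockout cells, and LXRβ was 107.4. The input there held 3.0 and 4.0 scaled tags in the untreated lists and 26.0 in the LXRβ list. The site is thus high in every list that holds it and in the inputs. On chromosome 19 from 16090789 to 16090921 p65 was 127.3 and an LXRβ peak of 11.8 lay 458 bp away, with a knockout KLA peak of 203.2 at 505 bp. On chromosome 11 from 114768981 to 114769113 p65 was 113.2 with a focus ratio of 0.926, LXRβ was 10.9 at 21 bp, and the nearest knockout KLA peak was 41.8 at 4230 bp. This last site had no untreated peak within 500 bp.

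The 357 sites with no knockout KLA peak within 10000 bp are those where the lists differ most plainly in position. Their median height was 56.6 (quartiles 51.9 and 66.0), their median focus ratio 0.800 and their median fold over local signal 52.3. Of them, 282 (79.0%) had no other wild type peak within 5000 bp. The choice itself favours sites with few peaks around them, and sites in both lists with as few were not set beside them. An untreated wild type peak was near 7 of the 357 (1.96%, 0.792 to 4.00). An untreated knockout peak was near 14 (3.92%, 2.16 to 6.49) and an LXRβ peak near 25 (7.00%, 4.58 to 10.2). Over all wild-type-only sites, which include the 357, these shares were 1.94%, 3.71% and 6.21%, inside those intervals. Over all tall wild type peaks they were 4.11%, 6.57% and 7.6%. There the untreated wild type and untreated knockout shares lay above the intervals and the LXRβ share inside its own.

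The tallest of them were the chromosome 17 site from 39982470 and the chromosome 11 site from 108873077 described above. The third, on chromosome 14 from 70754650 to 70754782, had a height of 127.3 (83.9 to 185) on 27 tags, a focus ratio of 0.763 and a fold over local signal of 61.2. No list of untreated cells and no LXRβ peak came within 500 bp of it, and the nearest knockout KLA peak, of 35.9, was 10828 bp away. The next 3 without an untreated peak were taken after their values were seen. On chromosome 15 from 19605464 to 19605596 the height was 113.2 (72.5 to 168), the focus ratio 0.867 and the local fold 128, and the nearest knockout KLA centre lay 5550604 bp away. On chromosome 5 from 121387929 to 121388061 the height was 108.5 (68.8 to 163), the focus ratio 0.852 and the local fold 143, with an LXRβ peak of 26.4 at 7 bp. On chromosome 6 from 125304788 to 125304920 it was also 108.5, with an LXRβ peak of 10.0 at 67 bp.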

How the data were processed

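p65 and LXRβ ChIP-seq peak lists of 5 libraries were used, of 23 samples in the series, and the others were not analysed here. Per the submitters' processing notes, the build was mm9 and the tools were Bowtie 0.12.7 and HOMER. Peaks were called per library in factor mode at a false discovery rate of 0.001, counting at most 1 tag per bp, with 4-fold over the surrounding 10000 bp and, except for the wild type KLA list, 4-fold over input, per the file headers. Peak sizes were 132 bp in the wild type and 144 bp in the knockout KLA list, and the genome size setting was 2000000000 and 4000000000.

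Height is the deposited signal, the normalized tag count. The deposited focus ratio is a fraction, the deposited fold over local signal a ratio, the deposited findPeaks score was used in 1 alternative, and the deposited scaled input tags were read as input level. Folds, ratios and scores are the authors' and describe peaks within a list.

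Centres were the midpoints of peaks. Nearest centres were found with Python 3.11.15, numpy 2.4.6, pandas 2.3.3 and scipy 1.17.1, and figures drawn with matplotlib 3.10.9. bedtools 2.31.1 found the same 1239 sites. On simulated lists 100% of 17841 planted partners were found. Each was planted at most 400 bp from its peak, inside the 500 bp limit, so this checks the code only. Shares have exact Clopper-Pearson and heights exact Poisson intervals at 95%. Tags are not independent molecules, so intervals cover counting error only. Groups came from sample titles, with 1 library each.

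Named sites were the 10 tallest, those just inside and outside both thresholds, and the 3 tallest far from a knockout peak, with an untreated peak or with LXRβ. Other named sites are marked in the text. The sites, lists and rules were chosen with earlier results of these data known. Motif and promoter counts were not made, since no mm9 genome or annotation was used here.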

Additional observations from a re-analysis of the deposited data

How the results depend on the processing

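Of 88 values recomputed under 11 settings, 57 stayed within the interval of the reported value or, for the number of sites, within 1.5 times. The settings on input in p65 lists only and on the Poisson bound were chosen after seeing the data. The number of sites was 218 at a height of 75 or more, 44 at 100 or more, and 610 with the lower Poisson bound above the lowest knockout height. Those settings gave median heights of 84.9, 115.55 and 66.0 and median local folds of 18.7, 18.7 and 20.1. At 75 or more the shares with an untreated wild type, untreated knockout and LXRβ peak were 5.96%, 7.34% and 8.26%, and at 100 or more 15.9%, 15.9% and 13.6%, with a median focus ratio of 0.768 and 31.8% with a wild type neighbour within 1000 bp. Matching within 200 bp, or by an overlap of 1 bp, gave focus ratios of 0.778 and 0.7685, neighbour shares of 28.9% and 27.9% and untreated knockout shares of 4.96% and 5.03%. Matching within 1000 bp gave a neighbour share of 7.28% and a local fold of 25.85, and a local fold of 8 or more gave 16.9% and 27.2. Without peaks near input signal in any list the untreated shares were 1.04% (wild type) and 2.60% (knockout) and the LXRβ share 0, since every LXRβ peak has 1.4 or more scaled input tags. With p65 lists only, the untreated wild type share was 1.06%. Where a setting filters on the quantity itself, its construction moves the value; otherwise the cause was not tested. Motif and promoter shares were not run.

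No paired analysis was possible because each group is 1 library. The lowest sites are the least precise: 629 rest on 11 or 12 tags. The part of depth in which sites lack a knockout peak was not tested.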

Other observations

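Among the 22 windows of 100 kb with 3 or more wild-type-only sites, 6 had such sites at 75% or more of their tall wild type peaks, and 2 at all of them. These windows were found after the values were seen. Taking windows with 3 or more wild-type-only sites favours such shares, and all windows with as many tall wild type peaks were not counted. At chromosome 11 from 3000001 to 3100000 all 4 tall wild type peaks were wild-type-only, with heights of 75.5, 66.0, 61.3 and 56.6, among 11 wild type KLA peaks of any height and 1 knockout KLA peak. The peak of 56.6, from 3074337 to 3074469, had an untreated wild type peak of 128.7 with 1.6 scaled input tags centred 20 bp away. An LXRβ peak with 78.0 scaled input tags lay 1275 bp from the peak of 75.5, from 3000408 to 3000540.

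At chromosome 4 from 141200001 to 141300000 all 3 tall wild type peaks were wild-type-only, with heights of 66.0, 66.0 and 51.9, among 7 wild type and 5 knockout KLA peaks. The knockout peaks nearest to them were low, at 29.9, 35.9 and 29.9, and 5054, 11771 and 2947 bp away. At chromosome 13 from 103400001 to 103500000 there were 3 of 4, among 6 wild type and 2 knockout KLA peaks. The tallest of the 3, from 103479934 to 103480066, had a height of 75.5 and an untreated knockout peak of 76.3 with 0.2 scaled input tags centred 252 bp away. In the 3 other windows, on chromosomes 15, 2 and 4, 1 wild-type-only site each lay 602, 589 and 805 bp from a knockout KLA peak of 215.1, 298.8 and 334.6.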
